A study of Homo sapiens with 6 samples.

Results

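The edited cytosines described here lie in mRNA isoforms that GENCODE release 44 annotates as targets of nonsense-mediated decay (NMD). An edited position was kept where the isoform it was assigned to carries that annotation, where it lay on the strand of the isoform, and where it lay in its exons. Over 6 long-read libraries, 5436 distinct sites met these criteria, of 602088 distinct sites in all isoforms. They belonged to 197 NMD isoforms of 186 genes. Protein-coding isoforms of the same genes held 16006 sites and served as the comparison.

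INSCRIBE marks the RNA near a protein in fixed cells: an antibody binds the protein, and a purified fusion of the cytidine deaminase APOBEC1 and a nanobody binds the antibody and converts nearby cytosines to uracils. All libraries were made from HEK293T cells, a human embryonic kidney line, here the Lenti-X clone that the labels call HEK293XT, and full-length cDNA was read on the PacBio platform. RBFOX2-INSCRIBE (2 libraries, replicates 1 and 2) received a rabbit antibody to RBFOX2 and the enzyme, the enzyme-only control (2 libraries, titled replicates 2 and 3) received the enzyme without the antibody, and the buffer-only control (2 libraries, replicates 1 and 2) received neither. Replicates were separate wells of the same cell line, so their spread does not cover differences between cell lines or donors.

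NMD is the pathway that degrades mRNAs whose translation ends too early. An exon junction complex that remains bound downstream of the terminating ribosome marks the stop codon as premature, and the helicase UPF1 with its partners then starts decay. Many splicing factors keep their own level in check through such isoforms. RBFOX2 is a splicing regulator that binds the sequence UGCAUG, mostly in introns and in 3′ untranslated regions, and APOBEC1 prefers cytosines that follow an A or a U.

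The NMD isoforms had the layout that defines the class. In all 197 the stop codon lay more than 50 nt before the last exon junction, with distances from 51 to 8399 nt and a median of 824 nt. Their spliced lengths ranged from 703 to 12249 nt, with a median of 3002 nt. The annotation marks 24 of them as incomplete at the CDS start. Sequence that no protein-coding isoform of the gene covers was present in 141 isoforms, and 104 held at least 1 UGCAUG.

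The annotated stop codons of 5 isoforms are shown because their sites are described in detail. Whether these stop codons differ from those of the protein-coding isoforms was not examined. QKI, ACTG1, PCNP and RBMX are among the 5 most edited NMD isoforms, and SRSF7 is the SR protein with an edited NMD isoform. Each line gives 30 nt of the spliced isoform, 5′ to 3′, in DNA letters as GENCODE gives them, with the stop codon in capitals.

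QKI: ccaacgaaaggcTAAgaattcaagaacggt

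ACTG1: cgcaaatgcttcTAAacggactcagcagat

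PCNP: ttggatttgccaTAGgtagtcagacgacaa

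RBMX: gtggatattccaTGAattttaacatgagtt

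SRSF7: aggtatttatttTAAtaaaggaatggttgg

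In build hg38 these windows lie at chr6:163565957-163565986 (plus strand) in exon 7 of 8 of the QKI isoform and at chr17:81510675-81510704 (minus strand) in exon 6 of 7 of the ACTG1 isoform. The PCNP window lies at chr3:101579937-101579966 (plus strand) in exon 2 of 5. The RBMX window lies at chrX:136876620-136876649 (minus strand) in exon 4 of 8, and the SRSF7 window at chr2:38749501-38749530 (minus strand) in exon 3 of 7. The distance from the stop codon to the last junction was 824 nt in QKI, 211 nt in ACTG1, 184 nt in PCNP, 3274 nt in RBMX and 1138 nt in SRSF7.

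Sites with a UGCAUG within 50 nt, found in both RBFOX2-INSCRIBE libraries and in none of the other 4, are shown next. There were 13 such sites, and those printed are the ones of the 10 with the highest mean edit fraction whose motif and edited C fit within 30 nt, outside UBE2W. The edited C and the motif, written TGCATG, are in capitals, and each window is 5′ to 3′ on the strand of the isoform. All lie after the stop codon.

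ZNF273: TGCATGaggtaggtgttcagagtaatattC

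DZIP3: taatttgtTGCATGtgctgtaCttaaagca

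MTHFD2: aaaaagaaaaaCTGCATGttaatcattttc

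BTBD8: cttccttTGCATGtgcaatataCaaataag

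CALM2: ataTGCATGtatagtaattaggacttCatt

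In hg38 the windows are chr7:64930366-64930395 (plus strand, exon 5 of ENST00000395375), chr3:108648162-108648191 (plus, exon 16 of ENST00000495008), chr2:74214782-74214811 (plus, exon 9 of ENST00000489041), chr1:92183418-92183447 (plus, exon 7 of ENST00000674371) and chr2:47160643-47160672 (minus, exon 6 of ENST00000652974). The ZNF273, MTHFD2, BTBD8 and CALM2 sites lie in the last exon, and the DZIP3 site lies between the stop codon and the last junction, in sequence that no protein-coding isoform of the gene covers. The edit fraction, the share of the reads of an isoform that carry the edit, was 4.35% and 2.63% at the ZNF273 site in RBFOX2-INSCRIBE replicates 1 and 2. It was 3.03% and 3.63% at the DZIP3 site and 4.0% and 1.54% at the MTHFD2 site. At the BTBD8 site it was 2.27% and 2.56%, and at the CALM2 site 2.33% and 1.28%. The ZNF273 values equal the median fractions of that isoform's sites in the same libraries. Isoforms with few reads can show only high fractions, so this ranking favours them. The reads behind each value were not counted. The remaining 5 of the 10 highest sites were 3 in UBE2W, 1 more in CALM2 and 1 in INTS14, with fractions between 0.807% and 2.48%. A site not listed in a library may be unedited there or may not have been covered. These were not told apart, because the deposited fractions carry no read numbers and depth was not estimated.

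The NMD isoforms held more sites with the antibody than in either control. RBFOX2-INSCRIBE listed 1663 and 1634 distinct NMD sites, the enzyme-only control 682 in replicate 2 and 1318 in replicate 3, and the buffer-only control 549 and 543. No control library reached the RBFOX2-INSCRIBE libraries, and the enzyme-only replicates differed from each other more than the replicates of either other group. The mean was 1649 ± 20.5 (SD, n = 2) in RBFOX2-INSCRIBE, 1.65 times that of the enzyme-only control (1000.0 ± 450) and 3.02 times that of the buffer-only control (546 ± 4.24). The smallest p that the exact permutation test (two-sided) can reach with 2 libraries against 2 is 0.33, and each pair of groups gave that value.

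All sites of the series rose in parallel, from between 71398 and 72691 in the buffer-only libraries to 200603 and 205765 in RBFOX2-INSCRIBE. The NMD sites made up 0.829% and 0.794% of all sites in RBFOX2-INSCRIBE, 0.793% and 0.857% in the enzyme-only control, and 0.755% and 0.761% in the buffer-only control. The share in RBFOX2-INSCRIBE thus overlapped that in the enzyme-only control and was above that in the buffer-only control. Most sites were seen in 1 library: 4671 of the 5436 were listed in 1 library, 600 in 2 libraries, 145 in 3, 17 in 4, 3 in 5 and none in all 6. The authors removed edits shared by all samples as putative SNPs, so a count of 0 in the last class was set by their filter. Of the 197 isoforms, 56 had an edited C in all 6 libraries, 45 in 1 library, and 40 had none in RBFOX2-INSCRIBE.

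The protein-coding isoforms of the same genes carried more edited Cs per C than the NMD isoforms, whereas the NMD sites had the higher edit fractions. EditsC is the number of edited Cs divided by the number of Cs in the exons of the isoforms. For the 156 NMD isoforms of the 146 genes with both classes it was 1.31% and 1.30% in RBFOX2-INSCRIBE, 0.518% and 1.08% in the enzyme-only control, and 0.443% and 0.431% in the buffer-only control. The 190 protein-coding isoforms had 3.68% and 3.76%, 1.34% and 2.85%, and 1.27% and 1.35% in the same order. In each of the 6 libraries the NMD isoforms had the lower value.

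The ratio of both editsC values was 0.356 and 0.345 in RBFOX2-INSCRIBE, 0.385 and 0.379 in the enzyme-only control, and 0.350 and 0.320 in the buffer-only control. RBFOX2-INSCRIBE lay below the enzyme-only control by 0.0319 without overlap (exact permutation p = 0.33) and overlapped the buffer-only control (exact permutation p = 0.67). With only the sites of an edit fraction of at least 0.02, the mean ratio was 0.904 ± 0.123, 0.884 ± 0.226 and 1.11 ± 0.0191 (SD, n = 2) in the same order of groups. The lower editsC of NMD isoforms was thus far smaller or absent at this threshold, and the order of RBFOX2-INSCRIBE against enzyme-only turned with it. The number of reads per isoform sets the lowest fraction that can be seen, and its part in these ratios was not tested.

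The median edit fraction of NMD sites was 1.33% and 1.45% in RBFOX2-INSCRIBE, 1.43% and 1.27% in the enzyme-only control, and 1.14% and 1.22% in the buffer-only control. In the protein-coding isoforms of the same genes it was between 0.330% and 0.625%. RBFOX2-INSCRIBE overlapped the enzyme-only control and lay above the buffer-only control. Of the NMD edits, 36.1% and 40.1% had a fraction of at least 0.02 in RBFOX2-INSCRIBE, against 13.5% and 11.9% in the protein-coding isoforms. Where the same position was listed for both classes of a gene in a library, the NMD isoform had the higher fraction at 159 of 235 and 136 of 221 positions in RBFOX2-INSCRIBE, at 17 of 20 and 92 of 117 in the enzyme-only control, and at 15 of 16 and 14 of 21 in the buffer-only control. The same direction was thus seen with and without the antibody. A position is listed only if an edited read was seen, so an isoform with few reads can be listed only at a high fraction. The part of this limit in these fractions and counts was not tested.

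**Figure D1:**
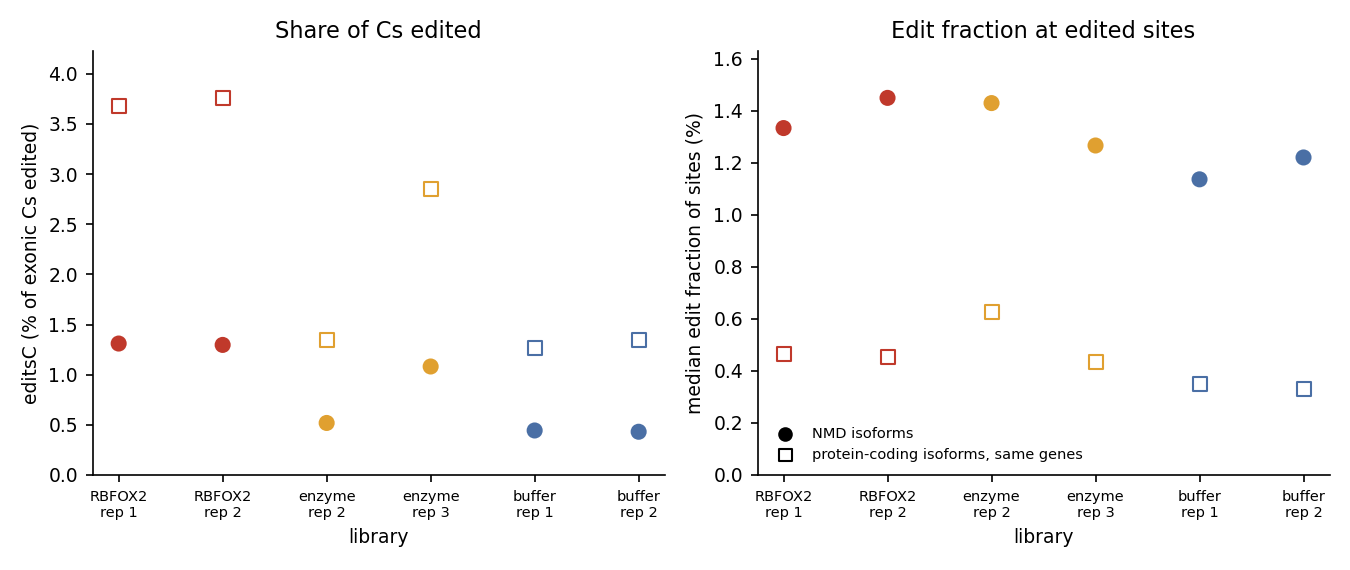
EditsC (left, % of exonic Cs edited) and median edit fraction of the sites (right, %) in each of the 6 libraries, for NMD isoforms (filled circles) and protein-coding isoforms of the same genes (open squares), coloured by group. NMD isoforms lie below the protein-coding isoforms in editsC, at 1.31% against 3.68% in RBFOX2-INSCRIBE replicate 1, and above them in edit fraction, at 1.33% against 0.465%.

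The most edited NMD isoforms encode an RNA-binding splicing regulator, an actin, a trafficking protein and a pair of nuclear proteins. QKI (ENST00000361758, chr6:163414000-163573800), a splicing regulator of the STAR family, had 111 and 115 edited Cs in RBFOX2-INSCRIBE, 41 and 74 in the enzyme-only control, and 16 in each buffer-only library, of 1365 Cs. TMED5 (ENST00000370290), a member of the p24 family that carries cargo between the endoplasmic reticulum and the Golgi, had 73 and 64, 24 and 67, and 20 and 14. PCNP (ENST00000460231), a nuclear protein, had 56 and 51, 10 and 50, and 16 and 16. For QKI and PCNP the RBFOX2-INSCRIBE libraries lay above all 4 control libraries, by 1 edited C in PCNP, while for TMED5 enzyme-only replicate 3 lay between them.

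ACTG1 (ENST00000576544), which encodes cytoplasmic γ-actin, did not follow this order, with 95 and 73 edited Cs in RBFOX2-INSCRIBE, 117 and 90 in the enzyme-only control, and 71 and 77 in the buffer-only control, so that its RBFOX2-INSCRIBE libraries overlapped both controls. Its sequence is close to that of ACTB and of actin pseudogenes, and whether this affected the assignment of its reads was not tested. RBMX (ENST00000568578), an hnRNP protein that binds RNA, had 60 and 41, 12 and 47, and 34 and 26, so that enzyme-only replicate 3 lay between its RBFOX2-INSCRIBE values, as in TMED5, and both buffer-only libraries lay below them. The log2 difference of ACTG1 between RBFOX2-INSCRIBE and the buffer-only control was 0.17 ± 0.18 (SE, limma adjusted p = 0.433), and leaving out 1 library moved it between -0.02 without RBFOX2-INSCRIBE replicate 1 and 0.36 without replicate 2. That of RBMX was 0.73 ± 0.32 (limma adjusted p = 0.0813). The 5 most edited isoforms of each library held between 22.1% and 32.4% of its NMD edits.

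**Figure D2:**
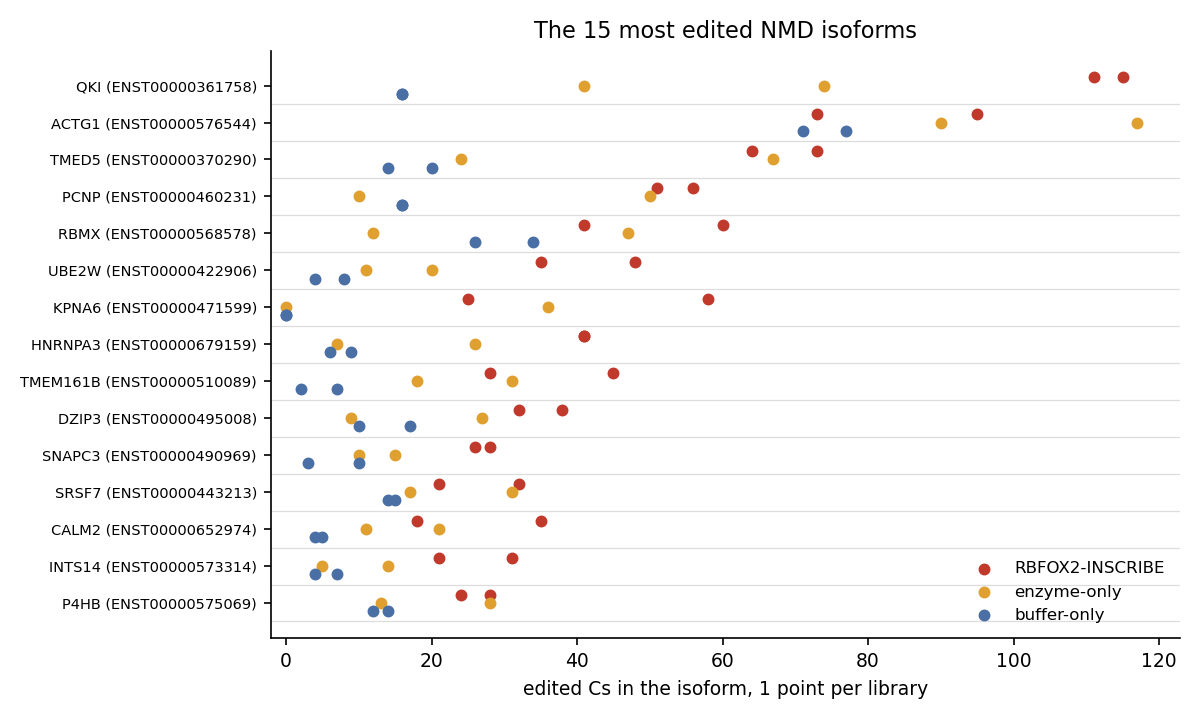
Number of edited Cs (horizontal axis) in the 15 NMD isoforms with the most edited Cs in RBFOX2-INSCRIBE, with 1 point per library, coloured by group. QKI reached 111 and 115 with the antibody against 16 in each buffer-only library, whereas the groups overlapped in ACTG1.

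Each isoform was then tested for a difference between groups with limma, on log2 editsC with a pseudocount of 0.5 edited Cs. Isoforms of all annotated types entered the fit if the libraries compared averaged 5 or more edited Cs, and p-values were adjusted over all of them. Against the buffer-only control, 38 of 64 NMD isoforms tested rose in RBFOX2-INSCRIBE at an adjusted p below 0.05 and none fell. Among all 5361 isoforms tested, 60% rose and 0.0746% fell, so the share of NMD isoforms called was near the background. Their median log2 difference was 1.89, beside 1.57 over all isoforms tested. The groups did not overlap, with RBFOX2-INSCRIBE higher, in 53 of the 64, where the background was 79.9%, and in none with RBFOX2-INSCRIBE lower (background 0.933%). After scaling each library to the same total of edited Cs, 2 of the 64 were called, beside 31 of all 5361 isoforms, and 1 of the 2 was among the 38.

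KPNA6 (ENST00000471599), an importin α that carries proteins into the nucleus, had 25 and 58 edited Cs in RBFOX2-INSCRIBE, 0 and 36 in the enzyme-only control, and was listed with none in either buffer-only library. It was called (limma adjusted p = 0.000589), and no fold is given because the buffer-only value is 0. CREBZF (ENST00000490820), a bZIP transcription factor, had 27 and 23, 10 and 24, and 2 and 0, with a log2 difference of 4.51 ± 0.83 against the buffer-only control (5.67 without buffer-only replicate 1 and 3.35 without replicate 2). UNK (ENST00000586527), a zinc finger RNA-binding protein, had 26 and 10, 5 and 7, and 1 and 0 (log2 difference 4.27 ± 0.70, and 5.06 and 3.48 without the same libraries). In all 3 the RBFOX2-INSCRIBE libraries lay above both buffer-only libraries.

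The other isoforms with the largest called differences against the buffer-only control were those of BTBD8, ECHDC1, GLRX2, NCBP2, HNRNPU, TMEM161B and EIF3F, with log2 differences from 2.89 to 4.10. Their values moved with the buffer-only library left out: without replicate 1 and without replicate 2, HNRNPU was at 4.91 and 1.45, GLRX2 at 4.75 and 1.94, BTBD8 at 2.70 and 5.51, ECHDC1 at 2.20 and 4.52, and TMEM161B at 3.85 and 2.26. NCBP2 (ENST00000428425), the small subunit of the nuclear cap-binding complex, had 12 and 16 edited Cs in RBFOX2-INSCRIBE, 0 and 5 in the enzyme-only control, and 1 in each buffer-only library. EIF3F (ENST00000678132), a subunit of the translation initiation factor eIF3, had 16 and 12, 8 and 4, and 1 and 2. GLRX2 (ENST00000608166), a mitochondrial glutaredoxin, had 12 and 14, 4 and 1, and 3 and 0. These are small numbers of edited Cs, and with 1 RBFOX2-INSCRIBE library left out the number of called NMD isoforms was 7 of 55 (without replicate 1, beside 357 of all 4964 isoforms) and 4 of 54 (without replicate 2, beside 324 of all 4984). QKI, PCNP and KPNA6 were called with any one of the 4 libraries left out.

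Against the enzyme-only control, no NMD isoform passed an adjusted p of 0.05 among the 70 tested. In limma 16 had an unadjusted p below 0.05, of which 15 were higher and 1 lower in RBFOX2-INSCRIBE, where 16.2% of all 5715 isoforms had such a p. At the adjusted p, the background was 0.0525%, that is 3 of the 5715 called higher, and none was called lower. The median log2 difference of the NMD isoforms was 1.09, beside 0.87 over all isoforms tested. RBFOX2-INSCRIBE lay above the enzyme-only control without overlap in 32 of the 70 (background 51.2%) and below it in 2 (background 3.39%). Without enzyme-only replicate 3, 26 of 66 NMD isoforms tested were called, beside 1871 of all 5749 isoforms, and without enzyme-only replicate 2 none of 86, beside none of all 6035. Each of these fits has 1 enzyme-only library, which is assumed to vary like the RBFOX2-INSCRIBE pair.

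The 5 with the smallest p that were higher in both RBFOX2-INSCRIBE libraries were SUV39H2, MTHFD2, NCBP2, EIF4A2 and BTBD8. SUV39H2 (ENST00000378331), a histone H3 lysine methyltransferase, had 29 and 9 edited Cs in RBFOX2-INSCRIBE, 0 and 2 in the enzyme-only control, and 4 and 2 in the buffer-only control (limma adjusted p = 0.163 against the enzyme-only control). MTHFD2 (ENST00000489041), an enzyme of mitochondrial folate metabolism, had 25 and 18, 5 and 3, and 6 and 4 (adjusted p = 0.195, limma). EIF4A2 (ENST00000425053), a helicase of translation initiation, had 23 and 16, 2 and 8, and 3 and 2 (adjusted p = 0.231, limma). In these 3 isoforms all control libraries lay below both RBFOX2-INSCRIBE libraries.

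BTBD8 (ENST00000674371) had 26 and 19 edited Cs in RBFOX2-INSCRIBE, 0 and 10 in the enzyme-only control, and 0 and 3 in the buffer-only control. The isoform of UCHL1 (ENST00000512419), a deubiquitinase, had the lowest p among those below the enzyme-only control, with 1 and 3 edited Cs against 15 and 8 (log2 difference -2.33 ± 0.74, limma adjusted p = 0.210). It was singled out after its values were seen.

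Between the controls, CREBZF was the only NMD isoform called among 37 tested (log2 difference 3.84 ± 0.96, limma adjusted p = 0.0148), where 0.812% of all 4436 isoforms tested rose and 0.0225% fell. Without any one of the 4 libraries it was not called. Enzyme-only lay above buffer-only without overlap in 16 of the 37 (background 44%) and below it in none (background 1.33%). The median log2 difference was 0.82 for NMD isoforms and 0.70 for all isoforms tested.

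**Figure D3:**
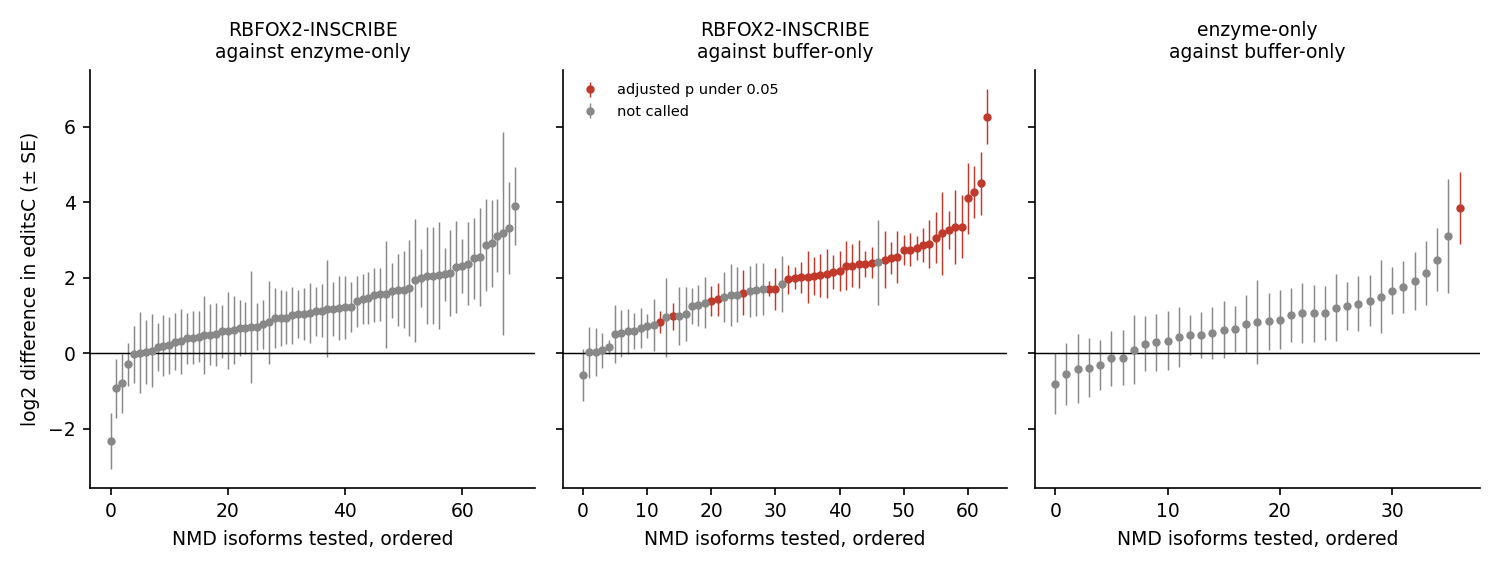
Log2 difference in editsC of each NMD isoform tested (vertical axis, error bars 1 SE of limma), ordered along the horizontal axis, for the 3 comparisons of groups. Red points passed an adjusted p of 0.05: none of 70, 38 of 64 and 1 of 37, from left to right.

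A gene-wise comparison asked whether the NMD isoform of a gene and its most edited protein-coding isoform differed in how they changed from the enzyme-only control to RBFOX2-INSCRIBE. Of 49 genes, none was called (0% in limma, with 4 at an unadjusted p below 0.05), and the median difference was 0.14 on the log2 scale. The smallest p belonged to SPIN3, a member of the spindlin family. With the antibody its NMD isoform had 7 and 12 edited Cs, against 0 and 3 with enzyme alone. With buffer alone it had 7 and 1, which overlapped RBFOX2-INSCRIBE. Its protein-coding isoform had 7 and 11 with the antibody, and 5 and 15 with enzyme alone (limma adjusted p = 0.180 for the gene). In SUV39H2 the protein-coding isoform had 5 and 10, and 3 and 8, against 29 and 9, and 0 and 2 in the NMD isoform (limma adjusted p = 0.223). GLYR1 went the other way, with 5 and 5, and 3 and 8 in the NMD isoform and 8 and 12, and 0 and 4 in the protein-coding isoform (limma adjusted p = 0.223). Without enzyme-only replicate 3, again with 1 enzyme-only library in the fit, 4 genes of 43 were called.

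Genes for RNA processing were examined as lists. No edited NMD isoform was found among the NMD factors, the exon junction complex proteins or the cytosolic ribosomal proteins. The annotated NMD isoforms of these genes were not counted, so this absence is not set against a background share. The list of hnRNP proteins, which does not hold RBMX, had 8 edited NMD isoforms of 5 genes. Of the 4 tested none was called against the enzyme-only control (median log2 difference 1.19, beside 0.87 over all isoforms). Of the 3 tested against the buffer-only control 2 rose (median 2.40, beside 1.57), where 60% of all isoforms rose. RBMX, also known as hnRNP G, was tested in both comparisons and called in neither, with log2 differences of 1.04 and 0.73.

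HNRNPA3 (ENST00000679159), a partner of hnRNP A2/B1 in mRNA trafficking, had 41 edited Cs in each RBFOX2-INSCRIBE library, 7 and 26 in the enzyme-only control, and 9 and 6 in the buffer-only control, and none lay in its last exon. HNRNPU (ENST00000475997), a scaffold of nuclear RNA, had 21 and 10, 4 and 9, and 5 and 0. All lay in sequence that no protein-coding isoform of the gene covers. HNRNPA2B1 had 4 edited NMD isoforms, of which ENST00000677906 had 15 and 9, 4 and 7, and 10 and 5. The NMD isoform of HNRNPUL1 (ENST00000595196) had 14 edited Cs in RBFOX2-INSCRIBE replicate 2 and none in the other 5 libraries. The hnRNP isoforms thus ranged from groups that did not overlap, in HNRNPA3, to sites seen in 1 library.

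SRSF7 (ENST00000443213), an SR protein that promotes exon inclusion, was the SR gene with an edited NMD isoform. It had 21 and 32 edited Cs in RBFOX2-INSCRIBE, 17 and 31 in the enzyme-only control, and 15 and 14 in the buffer-only control, of which 13 and 21, 8 and 11, and 7 and 4 lay in the 875 nt absent from its protein-coding isoforms. It was called against the buffer-only control (log2 difference 0.82 ± 0.29, limma adjusted p = 0.0394) and overlapped the enzyme-only control. Over all isoforms tested against the buffer-only control the median log2 difference was 1.57 and 60% rose. The rise of SRSF7 was thus below that median. Of the 3 other splicing regulators with an edited NMD isoform, QKI rose against the buffer-only control (log2 difference 2.78 ± 0.32, limma adjusted p = 0.000578), and RBM39 and RBM6 had too few sites to be tested. DDX1 (ENST00000677302), a DEAD box helicase, had 29 and 15, 8 and 10, and 3 and 7, and rose against the buffer-only control (log2 difference 2.06 ± 0.57, limma adjusted p = 0.0164). The differences of QKI and DDX1 were above the median over all isoforms tested.

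Within the NMD isoforms, editing with the antibody was highest in the last exon. In RBFOX2-INSCRIBE, editsC was 0.475% and 0.414% in the 5′ UTR, 0.685% and 0.628% in the CDS, 0.900% and 0.905% between the stop codon and the last junction, and 1.79% and 1.78% in the last exon. In the enzyme-only control it was 0.467% and 0.710% in the CDS and 0.599% and 1.25% in the last exon. In the buffer-only control it was 0.342% and 0.385% in the CDS and 0.465% and 0.427% in the last exon. The last exon thus stood above the CDS in each library, and the gap was widest in both RBFOX2-INSCRIBE libraries.

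Expressed as editsC after the stop codon over that in the CDS, the values were 2.02 and 2.19 in RBFOX2-INSCRIBE, 1.06 and 1.44 in the enzyme-only control, and 1.18 and 0.969 in the buffer-only control. RBFOX2-INSCRIBE lay above both controls without overlap, by 0.856 and 1.03 (exact permutation p = 0.33 in both comparisons, the smallest possible). Among isoforms edited in all 6 libraries the group means were 1.40 ± 0.196, 0.878 ± 0.250 and 0.687 ± 0.0704 (SD, n = 2) in the same order. The protein-coding isoforms of the same genes had 1.18 and 1.24, 0.890 and 1.00, and 0.657 and 0.610. Their RBFOX2-INSCRIBE libraries were likewise above both controls, so this order was not particular to the NMD isoforms. Read coverage along the isoforms is not given with the fractions, and its part in these ratios was not tested.

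**Figure D4:**
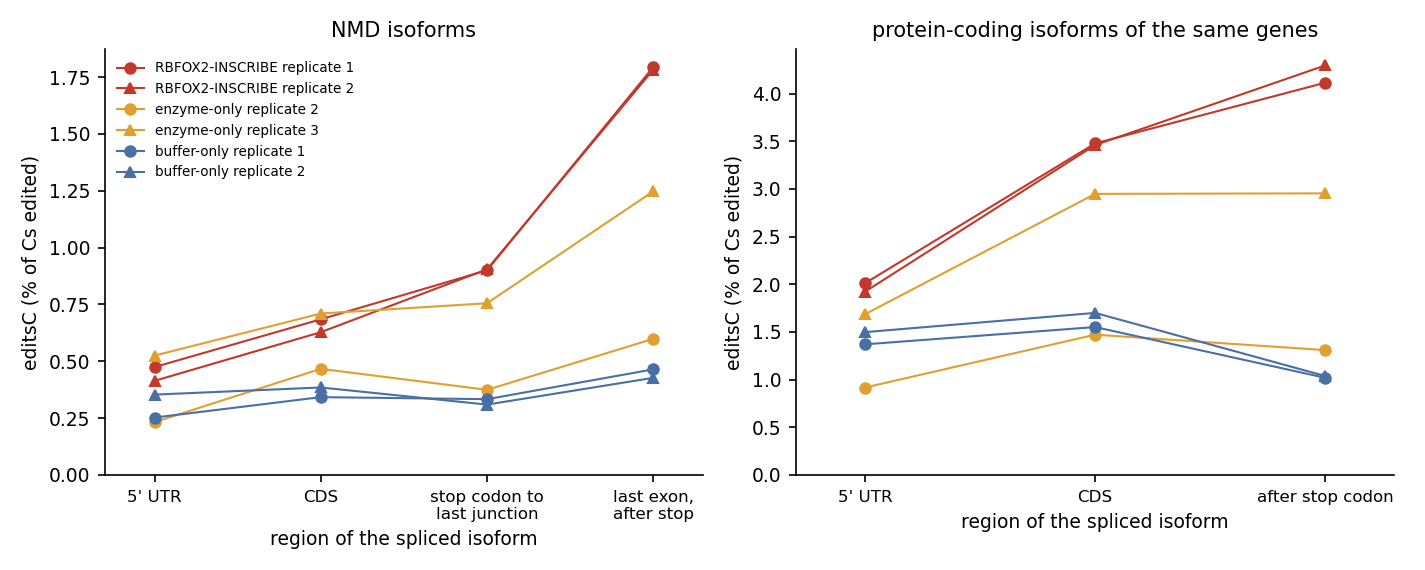
EditsC (% of Cs edited) by region of the spliced isoform, with 1 line per library, for NMD isoforms (left) and protein-coding isoforms of the same genes (right, region after the stop codon not split); the vertical scales differ. In NMD isoforms the RBFOX2-INSCRIBE libraries rose from 0.685% and 0.628% in the CDS to 1.79% and 1.78% in the last exon.

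Individual isoforms differed in where their sites lay. All edits of QKI with the antibody lay after the stop codon, 108 and 114 of them in the last exon, and none in the 643 nt that its protein-coding isoforms lack. In KPNA6 all 25 and 58 lay in the last exon. TMEM161B (ENST00000510089) had 28 and 45 edited Cs in RBFOX2-INSCRIBE, 18 and 31 in the enzyme-only control, and 7 and 2 in the buffer-only control, almost all before the last junction. In ACTG1, 32 and 26 of the 95 and 73 edits with the antibody lay after the stop codon, and in DDX1 3 and 1 of 29 and 15. The last pair thus had most of its sites in the CDS or the 5′ UTR.

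Over all isoforms and fractions, sequence that no protein-coding isoform of the gene covers, here NMD-only sequence, was edited about as often as shared sequence. Isoforms of other types were not considered in this split. Over 134 isoforms with both kinds of sequence, editsC in NMD-only sequence was 1.25% and 1.41% in RBFOX2-INSCRIBE, 0.456% and 1.10% in the enzyme-only control, and 0.423% and 0.364% in the buffer-only control. In shared sequence it was 1.20% and 1.15%, 0.521% and 0.954%, and 0.428% and 0.397%. The ratio was 1.13 ± 0.128 (SD, n = 2) in RBFOX2-INSCRIBE, 1.01 ± 0.194 in the enzyme-only control and 0.952 ± 0.0513 in the buffer-only control. RBFOX2-INSCRIBE overlapped the enzyme-only control (exact permutation p = 0.67) and lay above the buffer-only control without overlap (exact permutation p = 0.33). In isoforms edited in all 6 libraries the mean ratio was 0.751, 0.759 and 0.697 in the same order of groups. With only sites of an edit fraction of at least 0.02 it was 1.64, 1.41 and 1.38. The level of the ratio thus depended on the setting in each group. The isoforms with the most edits in NMD-only sequence were those of TMEM161B (27 and 39 with the antibody), RBMX (23 and 13), the gene ENSG00000290263, which has no symbol in the annotation (16 and 21), DZIP3 (14 and 20) and SRSF7 (13 and 21). DZIP3 encodes a ubiquitin ligase that binds RNA.

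The base before the edited C separated the libraries with enzyme from those without. An A or U preceded 77.1% and 76.4% of the NMD sites in RBFOX2-INSCRIBE, 64.5% and 75.9% in the enzyme-only control, and 45.2% and 43.5% in the buffer-only control. Among all Cs of the NMD isoforms the share was 51.2%, so the buffer-only libraries lay below it and the other 4 above. RBFOX2-INSCRIBE exceeded the enzyme-only control by 6.53 percentage points, or by 0.815 without enzyme-only replicate 2, and the buffer-only control by 32.4 points (exact permutation p = 0.33 each). A G preceded 35.2% and 35.7% of the buffer-only sites, against 15.2% and 15.5% in RBFOX2-INSCRIBE and 23.8% of all Cs.

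**Figure D5:**
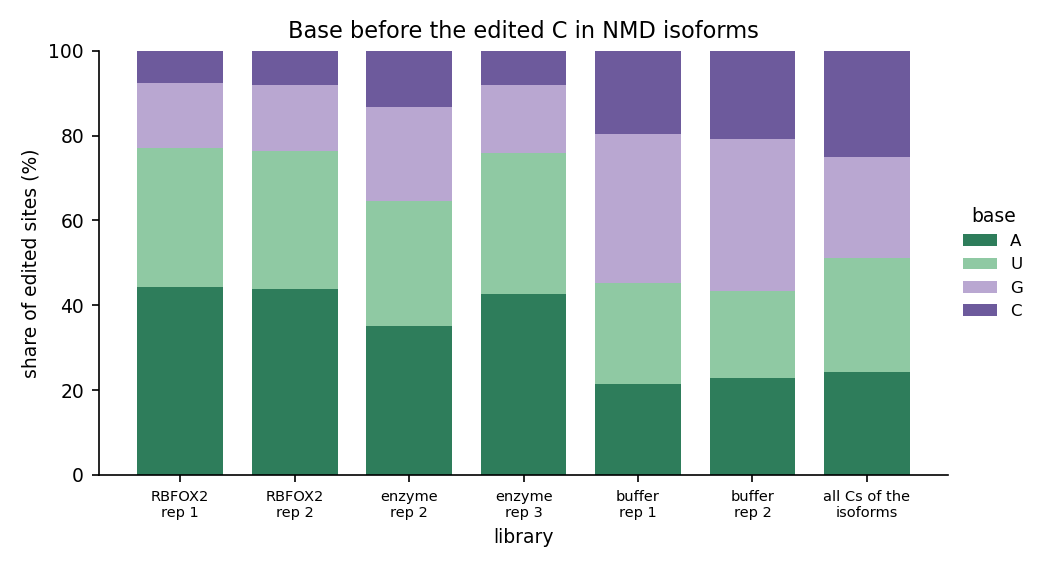
Share (%) of NMD sites preceded by each base, as stacked bars for the 6 libraries and for all Cs of the NMD isoforms. A and U together made up 77.1% and 76.4% with the antibody, against 45.2% and 43.5% without antibody and enzyme.

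UGCAUG, searched on the strand of the isoform and not on the other strand, lay within 50 nt of 99 of 1663 and 91 of 1634 NMD sites in RBFOX2-INSCRIBE, that is 5.95% (95% Wilson interval 4.91 to 7.20) and 5.57% (4.56 to 6.79). The intervals cover counting error only. In the enzyme-only control it was near 28 of 682 and 38 of 1318 sites, and in the buffer-only control near 15 of 549 and 26 of 543. Over all Cs of the 197 isoforms the share was 2.41%. Because sites crowd into exons that differ in motif content, each share was also divided by that of all Cs in the same exons.

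This enrichment was 1.36 and 1.47 in RBFOX2-INSCRIBE, 1.00 and 1.17 in the enzyme-only control, and 1.10 and 1.50 in the buffer-only control. RBFOX2-INSCRIBE lay above the enzyme-only control without overlap, by 0.325 (exact permutation p = 0.33), and overlapped the buffer-only control, whose replicate 2 had the highest value. Without buffer-only replicate 1 the difference from the buffer-only control was -0.0875. In the protein-coding isoforms of the same genes, which had more sites, the enrichment was 1.28 and 1.22 in RBFOX2-INSCRIBE and between 0.856 and 1.02 in the 4 control libraries. At the NMD sites the enrichment in RBFOX2-INSCRIBE was thus not separated from that in buffer-only. The part of the number of sites in this was not tested.

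Sites that recurred were few and differed in kind between groups. Both RBFOX2-INSCRIBE libraries listed 232 NMD sites, 143 of them in no other library, while both enzyme-only libraries listed 59 and both buffer-only libraries 26. The total number of sites differs between groups, so these counts are not rates. An A or U preceded 93.7% of the 143, 74.2% of the 2428 sites seen in 1 RBFOX2-INSCRIBE library alone, 69.5% of the 59 and 26.9% of the 26. The 59 and the 26 were not restricted to sites absent from other groups. For the 232, which were not restricted either, the share was 91.4%. The last exon held 76.9% of the 143 and 54.8% of the 2428. UGCAUG was near 13 of the 143 (9.09%) and near 126 of the 2428 (5.19%). Relative to all Cs of the same exons the enrichment was 1.40 for the 143 and 1.41 for the 2428. It was 0.519 for the 59 and 1.465 for the 26, each resting on 1 site near the motif.

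The 143 sites lay in 42 isoforms. QKI held 17 of them, TMED5 13, UBE2W 10, PCNP and CALM2 8 each, KPNA6 7, and CREBZF and HNRNPA3 6 each. A UGCAUG was near 4 of the UBE2W sites, 3 of the CALM2 sites and 1 of the QKI sites, and near none of those in TMED5, PCNP, KPNA6, CREBZF or HNRNPA3. In CALM2 (ENST00000652974), which encodes calmodulin, the NMD isoform as a whole had 35 and 18 edited Cs in RBFOX2-INSCRIBE, 21 and 11 in the enzyme-only control, and 4 and 5 in the buffer-only control. It rose against the buffer-only control (log2 difference 2.37 ± 0.34, limma adjusted p = 0.00126), and its RBFOX2-INSCRIBE values overlapped those of the enzyme-only control.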

How the data were processed

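Per the study's methods, each deposited value is an edit fraction, the share of an isoform's reads that carry the edit at a position, from PacBio Kinnex full-length cDNA. The authors aligned the reads to hg38 with pbmm2, assigned them to isoforms with IsoQuant, called C-to-U edits, and removed dbSNP positions and edits found in all samples. Their annotation release for the long reads is not given in the sources used here, so GENCODE release 44 on hg38 was used for transcript types, exons and sequences. Read numbers do not accompany the fractions, and depth was not estimated from the fractions. No count model was used, and isoforms with few reads can show only edits of high fraction. Between 682 and 1667 edits of NMD isoforms per library with enzyme, and 549 or fewer in buffer-only libraries, were kept, while 17 to 46 on the opposite strand were left out.

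Libraries were grouped by their titles, where the enzyme-only replicates are numbered 2 and 3 (the replicate field says 1 and 2). EditsC was tested with limma 3.58.1 in R 4.3.3 (trend and robust, Benjamini-Hochberg over all isoforms tested), and library values with exact permutation tests (scipy 1.17.1, Python 3.11.15). Named isoforms were the 5 most edited in RBFOX2-INSCRIBE, the 5 with the smallest p against enzyme-only among those higher in both RBFOX2-INSCRIBE libraries, the 10 and 5 largest called differences against buffer-only, 3 genes of the gene-wise test, the 10 motif sites, members of the gene lists that averaged 5 or more edited Cs, and the 5 most edited in NMD-only sequence. Fits were tested on simulated data. Members and lists were chosen with earlier results of these data known.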

Additional observations from a re-analysis of the deposited data

How the results depend on the processing

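The ratio of sites and the share of sites after A or U kept their direction for each pair of groups under every alternative run. Leaving out 1 library gave ratios of sites from 1.25 to 2.42 (RBFOX2-INSCRIBE over enzyme-only), 2.99 to 3.05 (over buffer-only) and 1.25 to 2.41 (enzyme-only over buffer-only). Calls of NMD isoforms against enzyme-only were 0, and 1 with a pseudocount of 1, 1 where a mean of 10 edited Cs was required, 3 with a replicate block by the replicate field and 0 to 26 leaving out 1 library. Against buffer-only they were 38, and 36 with a replicate block by title number, 22 with a mean of at least 10, 6 with a fraction of at least 0.02, 2 after scaling to the same total, and 4 to 29 leaving out 1 library. Between the controls the 1 call became 0 with a mean of at least 10 or at least 1, a fraction of at least 0.02, scaling, or leaving out any library (0 to 0). Whether the replicate numbers pair the libraries cannot be settled with 2 libraries per group. Deviations of same-numbered libraries correlated at r = 0.02 (RBFOX2-INSCRIBE and buffer-only) and 0.098 (RBFOX2-INSCRIBE and enzyme-only by the replicate field). These values are over 5361 isoforms, which are not independent replicates. Pairing with enzyme-only by title number was not examined. Gene-wise calls were 0 with the replicate block, 1 with a pseudocount of 1 and 0 to 4 leaving out 1 library.

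The editsC ratio of NMD over protein-coding isoforms turned between RBFOX2-INSCRIBE and enzyme-only with a fraction of at least 0.02 (0.0206). Against buffer-only it turned with that fraction (-0.206), a complete CDS start (-0.00858), isoforms edited in all 6 libraries (-0.0855) and gene-wise medians (-0.0477), and between the controls with that fraction (-0.226) and gene-wise medians (-0.0280). The UGCAUG difference from buffer-only turned with a window of 100 nt (-0.0265) and ranged from -0.0875 to 0.314 leaving out 1 library, and between the controls it turned with that fraction (0.0682). The ratio after the stop codon over the CDS turned between the controls with that fraction (-0.245) and without enzyme-only replicate 3 (-0.0138 to 0.362). The NMD-only over shared ratio turned against enzyme-only for isoforms edited in all 6 libraries (-0.00796), and leaving out 1 library gave -0.0177 to 0.256, and -0.0770 to 0.197 between the controls. After scaling, the log2 differences from buffer-only were -1.33 for ACTG1 and -0.76 for RBMX, and that of TMED5 from enzyme-only was -0.064, and leaving out 1 library gave -0.0183 to 0.359 for ACTG1 against buffer-only. The causes were not tested. Read depth was not estimated and limits all values.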

Other observations

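Edits assigned to NMD isoforms but lying on the opposite strand numbered 46 and 44 in RBFOX2-INSCRIBE, 17 and 35 in the enzyme-only control, and 44 and 42 in the buffer-only control. They were not used in any comparison. The kept edits outnumbered them by 36.2 and 37.2 times in RBFOX2-INSCRIBE, 40.1 and 37.7 times in the enzyme-only control, and 12.5 and 12.9 times in the buffer-only control.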
